A study of Mus musculus with 4 samples.

Results

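The small leucine-rich proteoglycans (SLRPs) followed here are decorin (Dcn), biglycan (Bgn), asporin (Aspn), lumican (Lum), fibromodulin (Fmod), PRELP (Prelp), osteomodulin (Omd) and osteoglycin (Ogn). Their members were taken as every gene probe whose transcript accession belongs to 1 of these 8 symbols. A probe was found for 7 of the 8 genes, out of 36838 gene names on the array, and each of the 7 had 1 probe printed once. Of these, 5 were well above background on all 4 arrays, Omd on all but AR7, and Aspn on none. No probe was matched to Prelp, which was not analysed here. The family was chosen from measured values: it was put forward because of its levels on these same arrays, so the values below are a description and carry no test.

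RNA of NIH-3T3 cells, an immortalized mouse fibroblast line, was hybridised to 4 one-colour Agilent arrays, 1 per group. The cells were untreated or had received AR7, CA39 or CA77, small molecules that act on retinoic acid receptor alpha, each at 20 µM for 24 h. The compounds were dissolved in DMSO, and the label of the untreated cells names no treatment. A change shared by all 3 compounds therefore cannot be told apart from one of the vehicle, nor from the slide row, since the untreated array lay in row 1 and the treated arrays in row 2 of the same slide. The CA77 array belonged to scan 2 and the other arrays to scan 1. With 1 array per group no p-value was computed, and nothing here measures how separate cultures would differ. All comparisons with untreated cells also share that 1 array.

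SLRPs are secreted proteins of the extracellular matrix whose horseshoe-like core of leucine-rich repeats binds collagen. In skin, tendon, cornea and bone they set the diameter and spacing of collagen fibrils, and several hold growth factors such as TGF-beta in the matrix. Most carry chains of chondroitin, dermatan or keratan sulfate, which are built on the core protein in the Golgi. Fibroblasts are a main source of decorin.

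Decorin and lumican were far lower with CA39 than in untreated cells, while biglycan and osteoglycin were higher, and neither pattern was seen with AR7 or CA77. Decorin was 51.8-fold and lumican 18.5-fold lower with CA39. Biglycan was 4.97-fold and osteoglycin 4.64-fold higher with CA39, and osteomodulin was 1.75-fold higher. With AR7 and CA77 the signals of biglycan and osteoglycin were instead between 1.73-fold and 1.93-fold lower. Osteomodulin was 2.08-fold lower with AR7, where its spot was not well above background, and 2.3-fold lower with CA77. Fibromodulin stayed under 2-fold, and asporin was not well above background on any.

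The regions upstream of the 3 genes with more signal on the CA39 array than on the untreated array (past 2-fold for Bgn and Ogn, and 0.81 on the log2 scale for Omd) are printed to show the sequence next to their gene starts. Sequences are from RefSeq (build GRCm38.p6, plus strand), 250 bases up to the gene start, and capitals mark every match to a searched motif.
Bgn, chrX:73483351-73483600: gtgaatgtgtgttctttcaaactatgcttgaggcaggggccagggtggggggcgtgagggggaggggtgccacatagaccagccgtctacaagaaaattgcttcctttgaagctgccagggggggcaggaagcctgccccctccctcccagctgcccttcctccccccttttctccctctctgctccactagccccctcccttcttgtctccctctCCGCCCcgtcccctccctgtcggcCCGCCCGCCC
Ogn, chr13:49607765-49608014: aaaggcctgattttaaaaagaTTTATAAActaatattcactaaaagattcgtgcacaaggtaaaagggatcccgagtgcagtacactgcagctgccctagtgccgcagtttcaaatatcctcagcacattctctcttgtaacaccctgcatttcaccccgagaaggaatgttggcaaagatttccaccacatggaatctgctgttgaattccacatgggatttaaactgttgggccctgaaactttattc
Omd, chr13:49582212-49582461: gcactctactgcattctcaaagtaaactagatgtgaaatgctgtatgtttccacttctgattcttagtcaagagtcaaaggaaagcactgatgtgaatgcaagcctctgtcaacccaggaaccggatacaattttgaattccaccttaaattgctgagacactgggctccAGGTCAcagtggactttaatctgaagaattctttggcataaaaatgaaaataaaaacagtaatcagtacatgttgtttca
Both strands were searched for 6 motifs, and the share of 32851 mouse promoters of the same length that hold each is given beside it. AGGTCA, the core to which nuclear receptors bind, was present in 14.0% of promoters. TGANTCA, the AP-1 motif, was present in 6.75%, and TATAAA, the TATA box, in 12.4%. The SMAD motif CAGAC was present in 42.2%. The GC box, GGGCGG, was present in 32.7% and CCAAT in 33.8%. The Bgn sequence held GGGCGG at 3 places on the minus strand, bases 34 to 29, 10 to 5 and 6 to 1 before the gene, the last 2 of which overlap. The Ogn sequence held TATAAA as an overlapping pair on opposite strands, at bases 229 to 224 and 227 to 222. The Omd sequence held AGGTCA once, at bases 80 to 75. No motif was shared by the 3 sequences, whose GC content was 64.4% for Bgn, 42.0% for Ogn and 38.4% for Omd against a median of 52.4% over all promoters. A match is a run of letters only, and binding was not measured. The upstream sequences of Dcn and Lum were not used here.

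Levels are given as log2 of the background-corrected, quantile-normalized signal, and a difference of 1 on this scale is 2-fold. Signals of different probes are not comparable with each other, so each gene is compared with itself across the arrays. Beside each difference stands a tolerance, taken from spots of probes printed 10 or more times on each array. It is about the standard deviation that spot-to-spot error within an array gives a difference, and it holds no other error. A difference somewhat past the tolerance can therefore arise from spot error alone.

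Decorin, which binds collagen fibrils and restrains TGF-beta and several receptor tyrosine kinases, is a class I SLRP. Its level was 17.15 in untreated cells, 17.61 with AR7 and 17.46 with CA77, against 11.46 with CA39. The scanner read the spot at 148466 intensity units in untreated cells, 206821 with AR7 and 166558 with CA77, against 2967.5 with CA39, none of them saturated. The CA39 array was low and the other 3 were high, although even on the CA39 array the spot remained well above its local background of 17 units. The difference from untreated cells was -5.70 with CA39, with a tolerance of 0.16 and a range of -5.72 to -5.59 over 9 other ways of processing the arrays. Of 27893 genes compared, 2 had a lower value than decorin. With AR7 it was 0.46 and with CA77 0.31 above the untreated level, and both differences exceeded the tolerance but stayed under 2-fold. CA77 differed from AR7 by -0.15, close to the tolerance, which 2 of the 9 alternatives passed (range -0.20 to -0.10).

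Lumican, a class II SLRP best known for keeping the cornea transparent, is the neighbour of decorin on chromosome 10. Its level was 14.60 in untreated cells, 13.98 with AR7 and 14.91 with CA77, against 10.39 with CA39. The spot signal was 25046 units in untreated cells, 17081 with AR7 and 28526 with CA77, against 1464 with CA39. The CA39 array was again by far the lowest, but AR7 lay below and CA77 above the untreated array, which was not the order seen for decorin. The difference from untreated cells was -4.21 with CA39 (range -4.27 to -4.16), -0.62 with AR7 and 0.31 with CA77, with a tolerance of 0.16. In the CA39 comparison 11 genes had a lower value than lumican.

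Biglycan, a class I SLRP closely related to decorin and a matrix signal that can engage Toll-like receptors, is encoded on chromosome X. Its level was 11.91 in untreated cells, 11.06 with AR7 and 11.12 with CA77, against 14.23 with CA39. The spot signal was 3904 units in untreated cells, 2273 with AR7 and 2054 with CA77, against 19907.5 with CA39. The CA39 array was high, and the AR7 and CA77 arrays were both below the untreated one. The difference from untreated cells was 2.31 with CA39 (range 2.29 to 2.39), -0.85 with AR7 and -0.79 with CA77, with a tolerance of 0.15. AR7 and CA77 differed from each other by 0.06, within that tolerance.

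Osteoglycin, a class III SLRP also called mimecan and found in bone, cornea and vessel walls, followed the same order. Its level was 9.67 in untreated cells, 8.72 with AR7 and 8.84 with CA77, against 11.88 with CA39. The spot signal was 850.5 units in untreated cells, 495 with AR7 and 443.5 with CA77, against 3992 with CA39. As for biglycan, CA39 stood high and AR7 and CA77 low. The difference from untreated cells was 2.21 with CA39 (range 2.15 to 2.31), -0.95 with AR7 and -0.83 with CA77, with a tolerance of 0.14.

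Osteomodulin, a class II SLRP that binds hydroxyapatite and is made mostly by bone cells, was dimmer. Its level was 7.52 in untreated cells, 6.46 with AR7 and 6.31 with CA77, against 8.33 with CA39, and the AR7 spot was not well above background. The array order was that of biglycan and osteoglycin, apart from AR7 and CA77, whose order cannot be read at this signal. Osteomodulin was 2.08-fold lower with AR7, as measured on that dim spot, and 2.3-fold lower with CA77 than in untreated cells. With CA39 it was 0.81 higher on the log2 scale, and the tolerance was 0.20. Both 2-fold calls depended on the processing: over the alternatives the AR7 difference ran from -1.19 to -0.72 and the CA77 difference from -1.73 to -0.84.

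Fibromodulin, a class II SLRP of tendon and cartilage that competes with lumican for a site on collagen, had levels of 7.12 in untreated cells, 7.02 with AR7 and 6.75 with CA77, against 6.95 with CA39. Only the CA77 difference, -0.37 (range -0.48 to -0.26), exceeded the tolerance of 0.21, and those with AR7 (-0.10) and CA39 (-0.17) did not. With other processing the AR7 difference ran from -0.10 to 0.09, turning its sign, and the CA39 difference from -0.45 to -0.12, past the tolerance under 3 of the 9 alternatives. Asporin, a class I SLRP that lacks a glycosaminoglycan chain, had a spot signal between 58 and 78 units on the 4 arrays and was not compared.

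**Figure D1:**
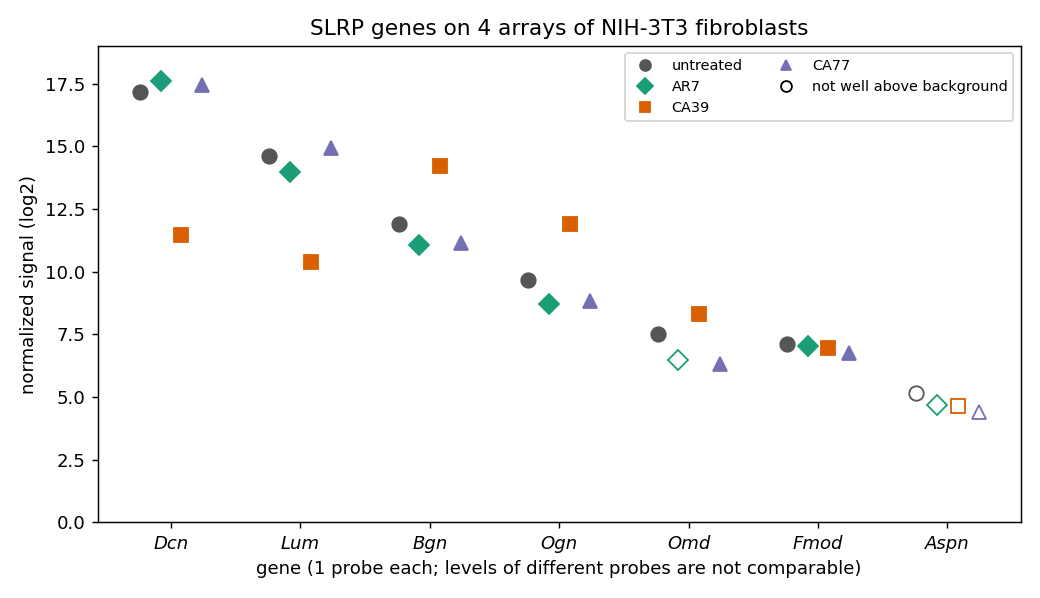
Normalized signal (log2, vertical axis) of the 7 SLRP genes with a probe on the 4 arrays, 1 point per array, with open symbols where the spot was not well above background. The CA39 squares lie far below the other arrays for Dcn (11.46) and Lum (10.39) and above them for Bgn (14.23), Ogn (11.88) and Omd (8.33).

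Counted at 2-fold, 4 of the 6 SLRP genes that could be compared differed between CA39 and untreated cells, with Bgn and Ogn higher and Dcn and Lum lower. Over all 27893 genes compared on those arrays, 3.88% were 2-fold higher and 1.45% 2-fold lower. With AR7 only Omd was past 2-fold, on the lower side, where 2.02% of all genes were higher and 1.13% lower. With CA77 it was again Omd alone, lower, where 2.53% of all genes were higher and 0.764% lower. As the family was picked from these contrasts, nothing is read from the counts against those percentages.

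**Figure D2:**
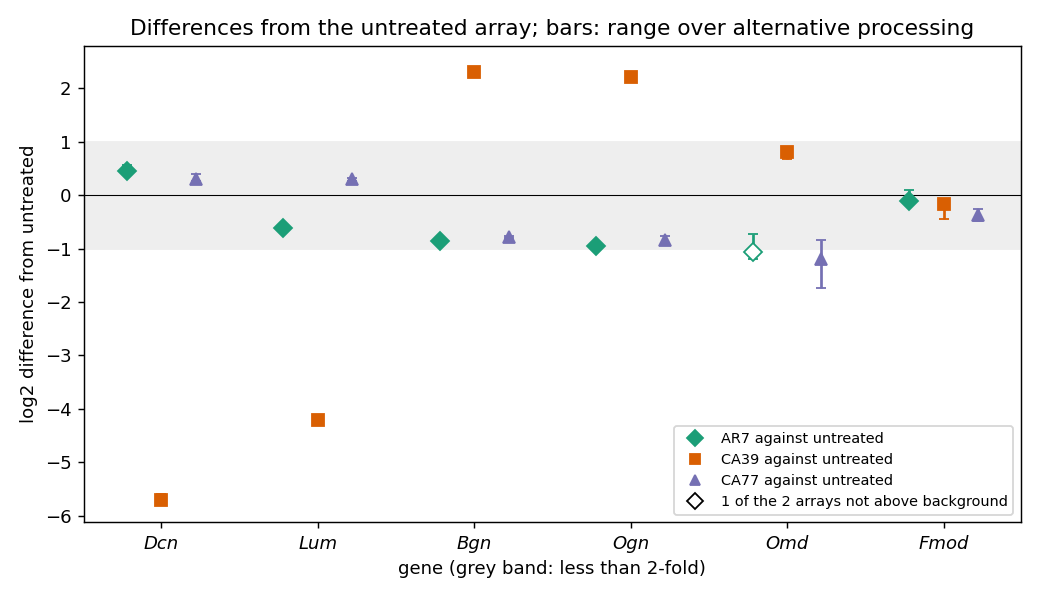
Log2 difference from the untreated array (vertical axis) for 6 SLRP genes with each compound, with bars for the range over 9 alternative ways of processing and a grey band for differences under 2-fold. With CA39, Dcn (-5.70) and Lum (-4.21) lie below the band and Bgn (2.31) and Ogn (2.21) above it, and bars cross the band's edge only for Omd.

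The compounds were compared with each other in 3 pairs, at the same dose and time. CA39 stood apart from both others. Against AR7, decorin was 71.3-fold and lumican 12.0-fold lower with CA39. Biglycan was 8.98-fold, osteoglycin 8.93-fold and osteomodulin 3.65-fold higher, the last against an AR7 spot not well above background. That is 5 genes past 2-fold, where 5.16% of all genes were higher and 3.22% lower. Against CA77, decorin was 64.1-fold and lumican 23.0-fold lower with CA39, and biglycan was 8.61-fold, osteoglycin 8.22-fold and osteomodulin 4.03-fold higher. These are the same 5 genes, where 4.52% of all genes were higher and 3.03% lower. Over the alternatives the osteomodulin difference ran from 1.42 to 2.04 against AR7 and from 1.51 to 2.61 against CA77 on the log2 scale. Fibromodulin with CA39 differed by -0.07 from AR7 (range -0.44 to -0.02) and by 0.20 from CA77 (range 0.03 to 0.22). Both were within its tolerance of 0.21, and both passed it under at least 1 alternative.

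CA77 and AR7 gave no SLRP gene past 2-fold between them, where 2.58% of all genes were higher and 1.82% lower with CA77. Biglycan differed by 0.06 (range 0.04 to 0.08) on the log2 scale, within its tolerance of 0.15. Osteoglycin differed by 0.12 (range 0.00 to 0.14), where its tolerance is 0.14, and decorin by the -0.15 given above. Lumican was the exception, 1.91-fold higher with CA77 than with AR7, and fibromodulin differed by -0.27 on the log2 scale (range -0.48 to -0.19), past its tolerance of 0.21 except with an offset of 50. Osteomodulin gets no fold here, because its AR7 spot was not well above background and its CA77 level did not exceed the AR7 one. The spread between cultures is unknown, so this does not show that AR7 and CA77 act alike on these genes.

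Several SLRP genes lie side by side in the genome, and up to 3 protein-coding neighbours on each side were read from the RefSeq gene order. This look at neighbours was added after values had been seen. On chromosome 10 the order is Eea1, Btg1, Gm46240, Dcn, Lum, Kera, Epyc and Ccer1. With CA39, Eea1, an endosome tethering protein, differed by 0.13 and Btg1, an antiproliferative gene, by -0.00. Epyc, the SLRP epiphycan, stood at 6.62 in untreated cells and at 4.78 with CA39, where its spot was not well above background, so that it was lower by at least the 0.45 that separates 6.62 from the lowest detected signal of that array (6.17). Kera, the corneal SLRP keratocan, was not above background on any array. Of the 5 genes of this stretch that could be compared, 2 were past 2-fold, the SLRP genes Dcn and Lum that the family was chosen for, where 3.88% of all genes were higher and 1.45% lower. Without the floor on dim signals Epyc would be past it too.

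On chromosome 13 the order is Ippk, Cenpp, Ecm2, Aspn, Omd, Ogn, Nol8 and Iars, followed by Gm272. With CA39, Ippk differed by -0.04, Cenpp by -0.13, Nol8 by -0.11 and Iars by 0.16, beside 0.81 for Omd and 2.21 for Ogn. With AR7, Ogn differed by -0.95, Omd was 2.08-fold lower by a spot not well above background, and those 4 genes differed by -0.05 to 0.10. On chromosome 1, Fmod is followed by Btg2, Chit1 and Chil1. With CA39, Btg2, an antiproliferative gene, differed by -0.72 and Chil1, a secreted chitinase-like lectin, by -3.17, beside -0.17 for Fmod, and Chit1 was not above background on any array. Around Bgn on chromosome X, the CA39 differences of Haus7, Dusp9 and Pnck were 0.41, -0.29 and -0.45.

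**Figure D3:**
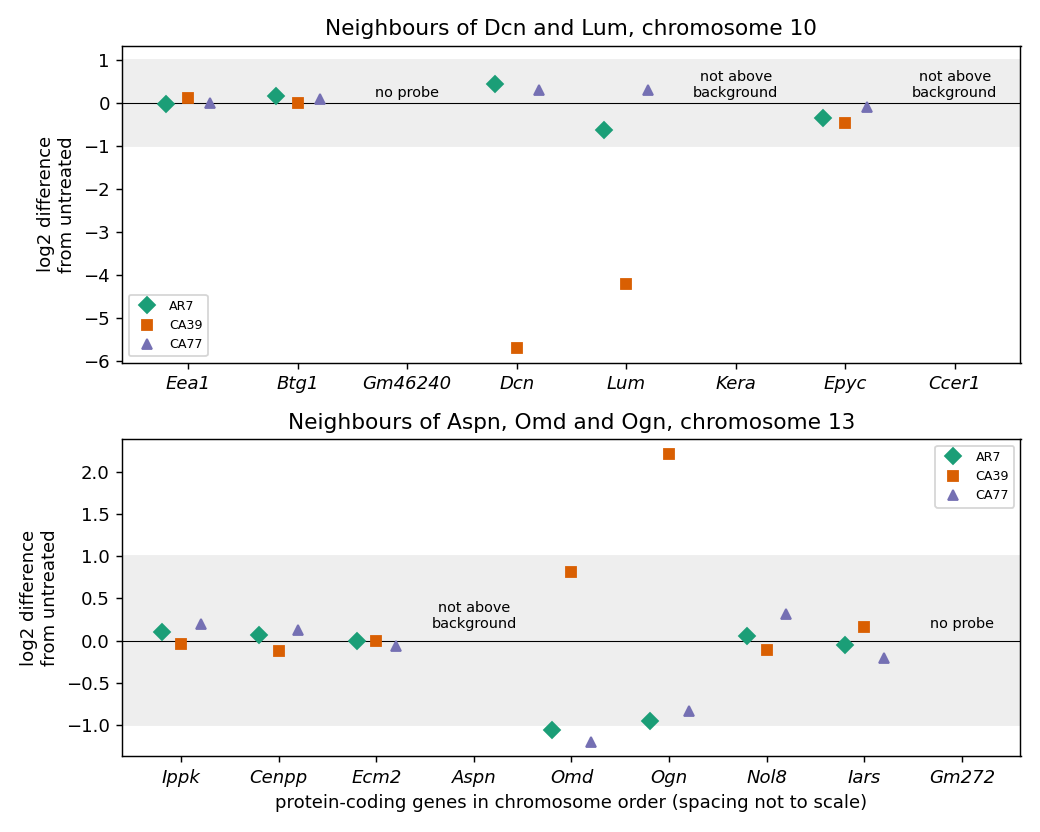
Log2 difference from the untreated array (vertical axis) for protein-coding genes in their order along chromosome 10 (upper panel) and chromosome 13 (lower panel), 1 point per compound. Dcn (-5.70) and Lum (-4.21) with CA39, and Ogn (2.21) with CA39, stand away from genes on either side such as Btg1 (-0.00) and Nol8 (-0.11). The points of Epyc with AR7 and CA39, of Omd with AR7 and of Ecm2 with all 3 compounds rest on a dim signal. Of these the CA39 point of Epyc is a bound, and those of Ecm2 with AR7 and CA39 are set to 0.

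Among 13019 genes detected on all 4 arrays, those whose 3 differences from untreated were nearest to the values of decorin were ranked by straight-line distance in log2 units. The nearest was Cxcl5, a neutrophil chemokine, at a distance of 0.55 with values of 0.52, -5.18 and 0.51 for AR7, CA39 and CA77. Cxcl1, also a neutrophil chemokine, followed at 0.77 with 0.58, -5.01 and 0.65. Zmynd15 (1.06), Lrrc32 (1.18), which holds latent TGF-beta at the cell surface, and Nos2 (1.5), the inducible nitric oxide synthase, came next, with CA39 differences of -4.66, -4.57 and -4.46. A second probe of Zmynd15 gave -2.85. All 5 share with decorin a large CA39 difference, which dominates this measure.

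Lists of other genes of SLRP biology, 116 in all, were counted at 2-fold and are described by their counts and medians, beside a median over all genes of -0.02 with CA39, -0.03 with AR7 and -0.04 with CA77. With CA39, 14 of 97 genes compared were higher and 0 lower, where 3.88% of all genes were higher and 1.45% lower. With AR7, 0 of 94 were higher and 3 lower, where 2.02% of all genes were higher and 1.13% lower. With CA77, 3 of 97 were higher and 2 lower, where 2.53% of all genes were higher and 0.764% lower. The counts of single lists below rest on few genes each and are read beside the same percentages.

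The fibrillar collagens and other collagen partners of SLRPs lay, like biglycan, mostly above the untreated level with CA39 and below it with AR7 and CA77. Their median difference was 0.56 with CA39, -0.44 with AR7 and -0.57 with CA77 over 11 genes. With CA39, 9 of the 11 lay above the untreated level and 3 were past 2-fold, against 3.88% of all genes higher, namely Col6a3 (1.19), Col5a2 (1.12) and Col1a1 (1.06), which encode chains of collagens VI, V and I. The Col1a1 difference was 0.93 when the processed signal was scaled to its 75th percentile. With AR7, 10 of the 11 lay below the untreated level and Col1a1 was past 2-fold at -1.04, and 2 genes of the list were lower by 2-fold under both treatments of the processed signal and with the deposited series table. With CA77, 9 lay below it and none was past 2-fold. Col1a1 also counts among the fibroblast markers.

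Among 28 genes that build the linker, chondroitin sulfate and dermatan sulfate chains, 3 of 27 compared were 2-fold higher with CA39 and 0 lower, against 3.88% and 1.45% of all genes, with a median of 0.13. Csgalnact1, which starts the chondroitin chain, stood at 6.78 in untreated cells, 6.41 and not above background with AR7, 10.59 with CA39 and 6.72 with CA77, which is 14.0-fold higher with CA39 than in untreated cells. Chsy3, a chondroitin synthase, was 6.09-fold higher (2.61 on the log2 scale, and 1.59 to 3.13 over the alternatives), though its untreated spot was not above background. Chst11, a chondroitin 4-O-sulfotransferase, was 2.3-fold higher. None of this list was past 2-fold with AR7 or CA77.

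Of the keratan sulfate genes, 3 of 7 were 2-fold higher with CA39, against 3.88% of all genes. Chst2, a sulfotransferase, was 5.28-fold higher by its brightest probe (2.40 on the log2 scale, and 1.57 to 3.46 over the alternatives), while its second probe was above background on neither array. B3gnt7, which extends the chain, was 4.03-fold higher with CA39 and 6.06-fold higher with CA77 than on the untreated array, where its spot was not above background. Over the alternatives its log2 difference ran from 1.25 to 3.42 with CA39 and from 1.73 to 3.70 with CA77. B4galt1, a galactosyltransferase, was 2.01-fold higher by its brightest probe, but its other probe differed by 0.22 and the call was lost under 4 of 9 alternatives.

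Among the proteases and enhancers that act on SLRPs, Adamts5 and Adamts1, which cleave large proteoglycans, were 5.94-fold and 5.20-fold higher with CA39 (2 of 9 compared, against 3.88% of all genes, median 0.44). The other Adamts5 probe gave a difference of 1.51. Bmp1, which trims the biglycan and osteoglycin propeptides, differed by 0.12, and Mmp14 and Mmp2 by 0.70 and 0.63. With CA77, Tll2 was 2.49-fold higher, from an untreated spot not above background. That call was lost when dim signals were raised to the 1st percentile of detected signal.

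Of the ligands and receptors bound by SLRPs, 2 of 17 compared were 2-fold higher with CA39, against 3.88% of all genes. They were Vldlr (4.91-fold) and Lrp1 (2.15-fold), members of the LDL receptor family. The untreated spot of Vldlr was not above background. The log2 difference of Vldlr ran from 1.45 to 3.33 over the alternatives. The other Vldlr probe was above background on neither array. Erbb4, a receptor of the EGF receptor family, was at least 3.48-fold higher with CA77 (1.80 on the log2 scale, and 0.97 to 2.33 over the alternatives). Of the TGF-beta genes, Tgfb1 differed by -0.13, Tgfb2 by 0.97 and Tgfb3 by 0.64 with CA39. Egfr (0.19), Met (-0.62), Tlr2 (-0.67) and Tlr4 (-0.10) were also under 2-fold. The count of this list with CA39 was 3 with both treatments of the processed signal and with the deposited series table.

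Of the large and cell surface proteoglycans, Gpc3, a glypican, was 2.14-fold higher with CA39 and 2.10-fold lower with AR7, where its spot was not above background. Over the 9 alternatives the AR7 difference of Gpc3 ran from -1.11 to -0.20 on the log2 scale, and in 5 of them it was under 2-fold. Gpc6, another glypican, was 2.02-fold lower with AR7 and 2.11-fold lower with CA77. Gpc3 stood at 6.99 in untreated cells and at 6.09 with CA77, where its spot was not well above background. The count of this list with CA77, 1 lower, was 2 lower under both treatments of the processed signal and with the deposited series table. In the remaining SLRP family, Chadl, a chondroadherin-like protein, was 2.31-fold lower with CA77 by its brightest probe and differed by -0.42 by the other. No gene of that list was past 2-fold with CA39, but without the floor on dim signals 1 was, namely Epyc, on the lower side. With a normexp offset of 50, which compresses dim signals, Gpc3 and Gpc6 with every compound named, and Chadl, Tll2 and Erbb4 with CA77, were under 2-fold. Gpc6 with AR7 was also under 2-fold after centring on neighbouring spots.

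**Figure D4:**
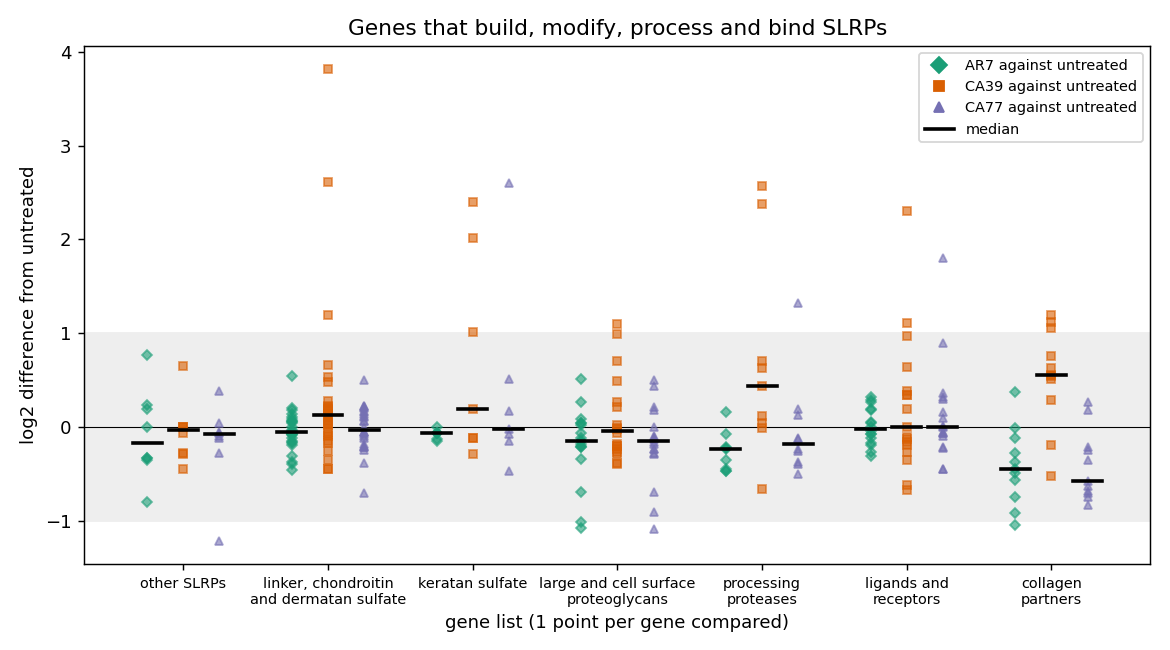
Log2 difference from the untreated array (vertical axis) for each compared gene of the 7 lists, 1 point per gene, with black lines for medians and a grey band for differences under 2-fold. Some points rest on a dim signal on 1 array, and such a point is a bound only where that signal was raised to the floor. With CA39 the collagen partners have a median of 0.56 and the points past 2-fold are all above the band, whereas with AR7 (-0.44) and CA77 (-0.57) the median of the collagen partners lies below 0.

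Across the arrays the median background-subtracted signal ran from 138 to 167.5 units, 52.2% (CA39) to 69.7% (untreated) of probes were well above background, and 0 gene spots were saturated. Of 10 fibroblast markers, 9 were above background on the untreated, AR7 and CA77 arrays and all on the CA39 array. Their summed signal was 1032840 in untreated cells, 877663 with AR7 and 920785 with CA77, against 1333288 with CA39. Such sums are carried mostly by the brightest probes of a list and do not describe its other genes. With CA39, 4 of the 10 markers were 2-fold higher, where 3.88% of all genes were higher and 1.45% lower. These were Pdgfrb by 3.14 on the log2 scale, from an untreated spot not above background, Fn1 by 1.47, Pdgfra by 1.19 and Col1a1 by 1.06. Of 5 epithelial markers, Krt8 (2.39) and Epcam (2.12, from an untreated spot not above background) were 2-fold higher with CA39, against 3.88% of all genes. Krt18 differed by 0.99, just under 2-fold. The defining Cdh1 was not above background on any array, nor was Krt19. The summed signal of the list was 424, 449, 1542 and 350 in the order untreated, AR7, CA39 and CA77. No osteoblast or chondrocyte marker was past 2-fold against untreated cells in any comparison, with Ibsp and Alpl not above background on any array, and the list summed to 7358, 5926, 13294 and 6077. Sox9, the brightest probe of that list, stood at 12.48 in untreated cells and 13.46 with CA39, a difference of 0.99 just under 2-fold, while the list's median with CA39 was -0.23 and 3 of its 5 compared genes lay below the untreated level. The tenocyte marker Tnmd and the adipocyte marker Adipoq were likewise not above background. In the adipocyte list Fabp4 differed by -1.59 with CA39, where the list median was -0.05 and 2 of 4 compared genes lay above the untreated level. In the smooth muscle list Acta2 differed by -1.03 with CA77, where the median was -0.14 and 2 of 5 lay above that level. The tenocyte, endothelial and macrophage lists held no gene past 2-fold against untreated cells. The part of cell state in the SLRP differences was not tested, and in bulk RNA a change in the mix of cells and a change in RNA per cell cannot be told apart.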

How the data were processed

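The authors treated NIH-3T3 cells, labelled the RNA with Cy3 and hybridised it to Agilent mouse arrays. Per the file headers, the deposited values are spot intensities of Feature Extraction 10.7.3.1, not normalized. The deposited series table holds intensities equal to the background-subtracted spot signals. The labels name oligo and RMA as the study's own processing, without versions. The members and lists were chosen with earlier results of these data known.

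Here the median signal and local background of all spots were corrected with normexp (limma 3.58.1, R 4.3.3; offset 0), control spots dropped, and values quantile-normalized and taken as log2. Flagged spots were removed, spots of a probe averaged, and the brightest probe used per gene. A probe was detected where the scanner software put more than 50% of its spots well above background. Dim values below the lowest detected signal of the array were raised to it, and dim values above it were left as measured. That signal was 5.05 in untreated cells, 3.54 with AR7, 6.17 with CA39 and 5.63 with CA77 on the log2 scale. Differences whose higher side was dim were set to 0, and a gene was compared when detected on either array. Differences marked "at least" rest on a raised value and are bounds only under this floor. Other differences with a dim side use the measured value of the dim spot. Probe names came from RefSeq accessions, and probes with other identifiers kept the file's name. The array cites another build than GRCm38.p6, so no probe coordinates are given. The number of arrays limits the precision. Samples were grouped by their treatment label. The background correction and quantile normalization were tested on simulated data, in which changes planted in brighter probes were recovered. Dim probes, the detection call, the floor and the later steps were not tested in this way. Alternatives were an offset of 50, scaling to the 75th percentile or quantile normalization of the processed signal, the series table, no floor, flagged spots kept, the mean of all probes, a floor at the 1st percentile, a 1.5-fold threshold and, added after seeing the data, centring on the 200 nearest spots. Genes were named by rule: all members, list genes past 2-fold (at most 4 per list and comparison) and the 5 nearest to Dcn; neighbours, partners under 2-fold such as Tgfb1, Tgfb2 and Tgfb3 and the marker genes were named after their values were seen.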

Additional observations from a re-analysis of the deposited data

How the results depend on the processing

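Of 324 recomputed SLRP differences, 306 moved by less than the tolerance and 18 by more. Of the differences past 2-fold, 0 changed sign. Below 2-fold, Fmod with AR7 turned from -0.10 to 0.09 with the series table and 0.05 with quantile normalization of the processed signal, within its tolerance of 0.21. For Dcn, Lum and Bgn every difference moved by less than its tolerance, and for Ogn the exception was CA39 against CA77 with the series table (3.19). The count of SLRP genes past 2-fold with CA39 against untreated, AR7 and CA77 stayed within 1.5 times under all 10 alternatives. With AR7 the count of 1 became 0 with an offset of 50, with the deposited series table and with the 1st-percentile floor, and 4 at 1.5-fold. With CA77 the count of 1 became 0 with an offset of 50 and 3 at 1.5-fold. Between CA77 and AR7 it became 1 at 1.5-fold. For the other lists with AR7, the count of 3 became 1 with an offset of 50, 8 at 1.5-fold, and 5 with 75th percentile scaling, the quantile-normalized processed signal, the series table or no floor. Of those 5 genes, 2 were higher without the floor and 1 was higher in each of the other settings, against 0 in the main one. In the list of other SLRPs with AR7, the count of 0 became 1 higher and 1 lower with 75th percentile scaling, the quantile-normalized processed signal or the series table. With CA39 the count of 14 became 27 at 1.5-fold. With CA77 the count of 5 became 1 with an offset of 50 and 14 at 1.5-fold. For the offset and the floor, dim genes are compressed by construction, and the cause of the other moves was not tested. Signal over background limits Omd, Fmod and Aspn, whose scanner error was highest, and 1 array per group limits everything else. In the list of other SLRPs with CA39, the count of 0 became 1 lower (Epyc) without the floor. No paired analysis was possible because each group has 1 array.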
